A study of Oryctolagus cuniculus with 4 samples.

Results

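Transcripts were described that were detected in fertilised rabbit blastocysts and not in parthenogenetic ones. Members were the probes, other than control spots, whose Cy5 signal was well above background and whose Cy3 signal was not, on all 4 arrays and with no outlier flag on the spot. Probes of SNURF, SNRPN, NDN, MKRN3, NNAT, PEG3, IMPACT, SGCE, RTL1 and MEST were left out. Detection met the rule at 740 of 43603 probes, 1.7% of the array. After 6 probes of 3 of the 10 left-out genes were set aside, 734 probes remained. They stood for 634 of the 22942 transcript identifiers on the array and for 227 of the 10318 genes with a name. Of the 734 probes, 281 carried 1 gene name, 3 carried several and 450 carried none.

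Each array compared 1 pool of 7 parthenotes, labelled with Cy3, with 1 pool of 7 fertilised blastocysts, labelled with Cy5, all from New Zealand White rabbits at 6 days. The parthenotes were oocytes activated by DC electrical pulses and then held in cycloheximide and 6-DMAP, and they were transferred to recipient does until recovery. The fertilised embryos were untreated and developed in vivo. No dye was swapped and the 4 arrays shared a slide, so the embryo type, the dye and the transfer cannot be told apart. The paper calls the 4 pools of each kind independent. Whether these pools came from separate recoveries is not given in the sources used here, and the spread over arrays may in part be technical. In pools of whole embryos, fewer cells of a kind and less RNA per cell cannot be told apart either.

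A parthenote carries only maternal chromosomes. Genes silenced on the maternal copy by imprinting are therefore without their active copy, and nothing delivered by the sperm is present. The blastocyst at this age is a hollow sphere of trophectoderm, the future placental epithelium, around an epiblast that gives rise to the embryo and a hypoblast that lines the cavity. Detection on an array is a property of a 60-base probe, so a transcript can be called absent by 1 probe and present by the next. The calls were therefore read together with the other probes of each gene.

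The labelled tissue was borne out by its markers. All 6 epiblast genes with a probe, POU5F1 and LIN28A among them, were well above background in both dyes on all 4 arrays, as were 9 of 11 trophectoderm genes and 14 of 16 hypoblast genes. ELF5, a trophectoderm regulator, was detected in neither dye. Marker sums of ciliated and secretory epithelium, erythroid cells, stroma and leukocytes differed in the opposite direction to the members, with no overlap between the dyes. Summed over the 10 ciliated-cell genes, the Cy3 signal of parthenotes was 1569 to 4416 and the Cy5 signal of fertilised embryos 515 to 648, and over the 10 secretory genes of oviduct and uterus it was 30574 to 48965 against 18410 to 21898. The 4 erythroid genes summed to 13213 to 31938 against 4296 to 11363, the 11 stromal genes to 3661 to 5080 against 2349 to 3221, and the 11 leukocyte genes to 952 to 1105 against 681 to 760. These sums do not speak for every gene. The limma fit given below called 7 of 10 ciliated and 6 of 10 secretory genes higher in parthenotes, at an adjusted p under 0.05. It called 2 of 4 erythroid, 4 of 11 leukocyte and 1 of 11 stromal genes higher, and none of these genes lower. Detected in neither dye were 5 stromal and 2 leukocyte genes. LCN2 (secretory), SLC4A1 (erythroid), CD8A (leukocyte) and LUM (stromal) had log2 ratios below 0, from -0.57 to -0.02. FOXJ1, the master regulator of motile cilia, was in neither dye. No gene on the lists of ciliated, secretory, stromal, leukocyte, erythroid, cumulus or sperm markers was a member. The sperm list did not hold ZAN, a member described below. Their part in the results below was not tested.

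The sequences below are 60-base probes of genes whose several probes gave ratios of the same sign, though not always the same calls, namely the neuropeptide precursor TAC1, the potassium channel subunit KCNS3, parathyroid hormone (PTH), prolactin (PRL) and the paraoxonase PON3. They are as given in the array files, 5′ to 3′. In TAC1, KCNS3 and PTH the capitals mark the 56 bases shared by all member probes of the gene, which were 5, 4 and 4 probes starting within 5 bases of each other.
TAC1: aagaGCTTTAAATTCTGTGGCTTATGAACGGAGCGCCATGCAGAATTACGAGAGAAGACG
KCNS3: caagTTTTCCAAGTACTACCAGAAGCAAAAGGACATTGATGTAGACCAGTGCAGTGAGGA
PTH: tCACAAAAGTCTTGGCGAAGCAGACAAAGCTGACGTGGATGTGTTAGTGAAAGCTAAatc
PRL: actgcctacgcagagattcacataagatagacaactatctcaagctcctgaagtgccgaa
PON3: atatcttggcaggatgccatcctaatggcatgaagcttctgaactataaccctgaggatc
The array files place the TAC1 probe at chr10:31655168-31658165 on the minus strand, so that its 60 bases span an intron. They place KCNS3 at chr2:166964922-166964981 (plus), PTH at chr1:155284906-155284965 (minus), PRL at chr12:14739684-14739743 (plus) and PON3 at chr10:33802635-33802694 (plus). The genome build of these coordinates is not named in the files.

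A second group of sequences is shown because nearly the same 60 bases gave opposite calls. For CREB5, a transcription factor of the CRE-binding family, and LECT2, a chemotactic factor secreted by liver, the member is followed by the probe shifted by 1 base, and the capitals mark the 59 bases that both share.
CREB5 member: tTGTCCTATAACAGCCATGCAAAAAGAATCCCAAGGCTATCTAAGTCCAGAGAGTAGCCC
CREB5 overlapping probe: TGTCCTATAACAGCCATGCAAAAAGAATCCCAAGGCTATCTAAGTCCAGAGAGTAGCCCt
LECT2 member: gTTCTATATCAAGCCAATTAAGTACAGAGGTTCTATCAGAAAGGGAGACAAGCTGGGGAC
LECT2 overlapping probe: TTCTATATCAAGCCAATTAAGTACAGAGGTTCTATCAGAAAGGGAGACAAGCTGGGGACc
The CREB5 pair lies at chr10:13486567-13487531 (plus) and the LECT2 pair at chr3:18454401-18454461 (minus). The CREB5 member read 76.0, 72.7, 76.0 and 72.9 in Cy5 on arrays 1 to 4. Its overlapping probe read 3.02, 2.71, 2.54 and 2.26, with Cy3 between 2.75 and 4.13. The calls of these probes, 1 base apart, were thus detected on every array and undetected on every array. The LECT2 member read 75.1, 51.6, 73.5 and 71.3 in Cy5. Its overlapping probe read 3.30, 2.96, 3.11 and 2.84 in Cy5 and 7.41, 6.54, 11.9 and 10.3 in Cy3. It was undetected in both dyes, but its log2 ratio of parthenote over fertilised signal was 1.53 ± 0.43, opposite in sign to the member.

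The members were dim. Signals here are Agilent processed signals, which are linear, background-subtracted and scaled between the dyes within an array. The median Cy5 signal over the 734 members was 21.5, 21.4, 21.0 and 19.6 on arrays 1 to 4, and their median Cy3 signal was 11.4, 10.9, 9.67 and 9.32. Over the 26302 probes well above background in Cy5 on all arrays the median was 339, 341, 331 and 308. No member reached that median, and 80.7% of the members lay in the lowest 10% of those probes. Median signals over the 4 arrays ran from 13.1 to 104 among members. No member was saturated.

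Because the members were chosen on these detection calls, their ratios are a description and were not tested. The log2 ratio of parthenote over fertilised signal had a median of -1.01 over the members, with quartiles at -2.12 and -0.58, a range from -4.77 to 0.03 and a median SD over 4 arrays of 0.38. With normexp background correction (offset 50) the median was -0.19 after loess and -0.000276 after median centring. That offset is added to both channels and draws log2 ratios of dim signals towards 0. The deposited ratio was below 0 on all 4 arrays for 637 probes. It was above 0 on at least 1 array for the other 97, of which 5 had a mean above 0. In a limma fit across all 43595 probes with a ratio, 4841 or 11.1% were lower in parthenotes at an adjusted p under 0.05, a count that lay between 708 and 3078 with 1 array left out. Among the members 388 of 734 were lower and none was higher, but the rule had used the same signals and nothing is read from this count. An undetected Cy3 signal is only a bound. After normexp (offset 50), loess and Aquantile normalization between the channels, the fertilised signal was at least 2-fold above the Cy3 detection floor at 21 probes of 17 identifiers. The largest bound was 2.67-fold, for SLN. Signal and floor both carry the offset, which draws the bounds of dim probes towards 1. More probes reached 2-fold on processed signals, as given at the end. Without a dye swap these bounds are open to dye bias.

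The dyes differed in their detection limits. The lowest processed signal called well above background was 18.2, 16.9, 15.7 and 14.1 in Cy3 on arrays 1 to 4. In Cy5 it was 10.5 to 13.2, so that the limit was 1.31 to 1.39 times higher in Cy3 on the same array. Before scaling between the dyes the order was the other way, with lowest background-subtracted signals of 15.4 to 18.3 in Cy3 and 23.9 to 26.8 in Cy5. Processed Cy3 signals as high as 24.6, 22.8, 22.3 and 20.9 were still called not above background. Of the 734 members, 295 had a Cy5 signal below that Cy3 limit on every array, 255 on some arrays and 184, or 25.1%, on none. A transcript at the same signal in both dyes could thus have met the rule in the first 295 cases. The mirrored rule, Cy3 well above background and Cy5 not, found 140 probes of 89 identifiers and 60 named genes, 0.321% of the array, and 136 of these 140 lay above the matching Cy5 limit of 16.0 to 19.2.

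The members also depended on where their spots lay. In 206 members, 28.1%, the spot in the same column 2 rows before had a Cy5 signal over 20000, against 2.96% of all probes. At every other offset examined, 1 to 4 rows or 1 column away, the share was 2.18% to 3.13% of members. Among probes mirrored to Cy3 it was 1.43%. Among probes not detected in Cy3, the share that were members was 3.38% where that spot was under 1000, 57.5% where it was between 50000 and 100000, and 96.9%, 94 of 97 probes, where it was above 100000. In that last group the median Cy5 signal was 42.8 and the median Cy3 signal 4.02, against 3.03 and 3.83 where the spot was under 1000. Over the 206 members the Cy5 signal had a Spearman correlation of 0.80 with that of the spot 2 rows before, at a median of 0.0346% of it, and over the other 528 the correlation was -0.03. These correlations are across probes of the same arrays and carry no test. Among negative control spots, 5 or 6 of 153 per array had such a spot over 10000, at 10219 to 23594. Their median Cy5 signal was 2.76 to 3.08, against 2.55 to 3.03 in the others, and the highest on each array was 8.45 to 15.8. What part the neighbouring spot had in a member's signal was not tested.

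**Figure D1:**
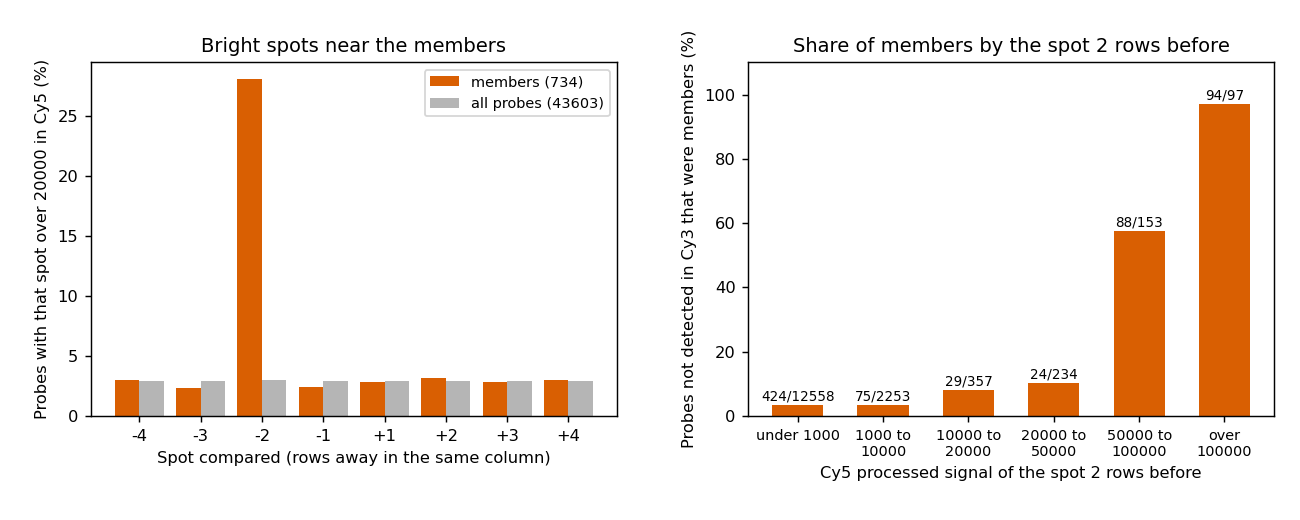
Left, percentage of members (orange) and of all probes (grey) for which a spot 1 to 4 rows away in the same column exceeded 20000 in Cy5. The members stand apart only at 2 rows before, 28.1% against 2.96%. Right, percentage of probes not detected in Cy3 that were members, by the Cy5 signal of the spot 2 rows before, with members over probes above each bar, rising from 3.38% to 96.9%.

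Results are therefore given for 3 sets, drawn after these patterns had been seen. The first held the 206 probes with a bright spot 2 rows before, of 204 identifiers and 75 named genes. The second, between the dye limits, held 453 probes of 397 identifiers and 142 genes without such a spot, whose Cy5 signal did not exceed the highest undetected Cy3 signal on every array. The third held 75 probes, 10.2% of the members, clear of both, of 57 identifiers and 23 named genes. Median log2 ratios were -2.59, -0.69 and -1.35. By the definition of the third set, all 75 clear probes had Cy5 above Cy3 on all 4 arrays, so nothing is read from that count. In the other sets 205 of 206 and 357 of 453 were lower in parthenotes on all 4 arrays. Of the 21 bounds of at least 2-fold, 16 were in the first set, none in the second and 5, all of the gene ZAN, in the third. Of the 20 brightest members 14 had a bright spot 2 rows before, and of the brightest 50 it was 42.

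**Figure D2:**
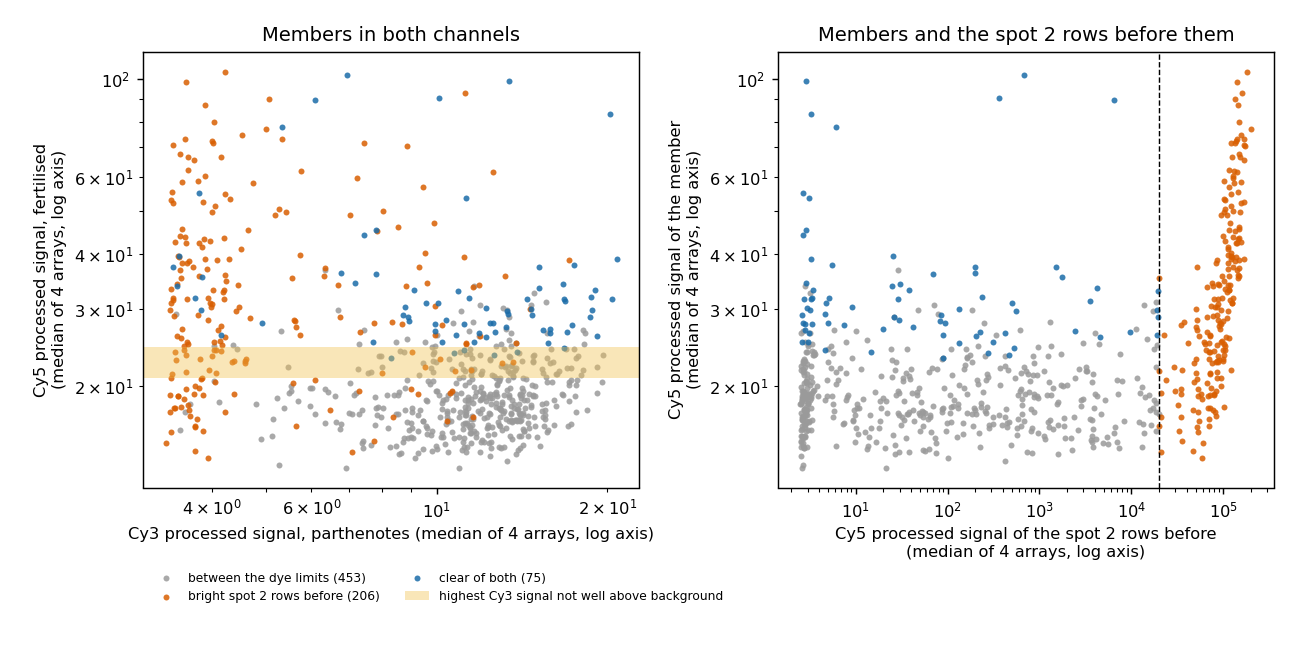
Left, median Cy3 signal against median Cy5 signal of each of the 734 members over 4 arrays (log axes), coloured by set, with the band of the highest Cy3 signals not called above background (20.9 to 24.6). Right, the same Cy5 signals against the Cy5 signal of the spot 2 rows before, with a dashed line at 20000. Above the line the Cy5 signal of the members climbs with that of the neighbouring spot.

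Overlapping probes of the array, which share at least 50 of 60 bases with a member, separated the sets further. Counting each such probe once, 73 overlapped a clear member, of which 43 or 58.9% were members themselves and 5 or 6.85% were detected in neither dye. Of 311 overlapping a member with a bright spot, 20 or 6.43% were members and 240 or 77.2% were in neither dye. Of 411 overlapping a member between the limits, 105 or 25.5% were members and 48 or 11.7% were in neither dye. Probes of a tiled stretch are not independent of each other. The other probes of the same genes behaved likewise. In the 20 clear genes with further probes, 13 of 46 were detected in both dyes on all arrays, in 9 genes. All 13 had a mean below 0 on the same arrays, with a median log2 ratio of -1.02 and a range from -2.91 to -0.29. Only in TAC1, PON3, RAB27A and KIT did any of them lie outside the stretch of a member. The RAB27A probe had a bright spot 2 rows before, and the KIT probe, at -0.29 ± 0.32, spanned 0. In the 54 genes represented only by members with a bright spot and with further probes, 126 of 158 probes were in neither dye. The 7 detected in both dyes had a median of -0.11, and 4 of them were lower. Over all probes detected in both dyes the median was -0.02 and 52.2% were lower.

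Among the 23 clear genes, ZAN had the brightest signals. It encodes zonadhesin, known as a protein of the sperm head that binds the egg coat. Its brightest probe, at chr6:27044971-27045030 on the minus strand, read 157, 92.5, 112 and 83.0 in Cy5 and 8.74, 5.13, 9.66 and 3.43 in Cy3. The log2 ratio was -4.12 ± 0.44 (SD, n = 4). On the normalized scale with the offset of 50, the fertilised signal was at least 2.49-fold above the floor. All 5 probes of this stretch were members, with ratios from -4.12 to -3.08, but they are shifted by single bases and count as 1 measurement. The remaining probe of the gene read 8.73, 13.1, 11.3 and 6.43 in Cy5, reached detection on 1 array, and had a bright spot of 28299 2 rows before. So 1 stretch of ZAN was detected in fertilised embryos only, and the second added little. Of the 16 other sperm genes with a probe, 11 were in neither dye on any array. Summed over the 16, the signal was 1145 to 1358 in fertilised embryos and 845 to 1072 in parthenotes. The part of sperm transcripts in the ZAN signal was not tested.

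TAC1, the precursor of substance P and neurokinin A, had 7 probes on the array, of which 5 were members. The probe printed above read 40.9, 35.4, 40.5 and 38.6 in Cy5 and 6.02, 3.72, 3.28 and 2.92 in Cy3, a log2 ratio of -3.34 ± 0.44. The 5 overlapping members had ratios from -3.44 to -2.82, and 1 of them, at -2.82, had a spot of 20213 2 rows before. Elsewhere in the transcript 2 probes were detected in both dyes on all 4 arrays. They read 237 to 274 in Cy5 against 47.3 or less in Cy3, and 386 to 419 against 47.0 to 64.3. Their ratios were -2.91 ± 0.26 and -2.80 ± 0.26. TAC1 was therefore present in parthenotes by these 2 probes, at a lower signal on every array, and its membership was a matter of 1 dim stretch.

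PON3, a paraoxonase that hydrolyses lactones, and ZDBF2, a zinc finger gene, stood on the list of further paternally expressed imprinted genes. ZDBF2 is expressed from the paternal copy in mouse and human. PON3 was put on the list although it is known in mouse as expressed from the maternal copy. Its brighter member read 61.3, 48.7, 56.7 and 50.5 in Cy5 and 10.1, 11.1, 15.8 and 11.5 in Cy3, a log2 ratio of -2.18 ± 0.31. All 8 probes of PON3 were lower in parthenotes, 3 of them with detection in both dyes on all arrays and ratios of -1.62, -1.61 and -1.30. PON3 was thus also detected in parthenotes by those 3 probes. ZDBF2 read 37.0, 33.8, 33.7 and 31.3 in Cy5 and 3.77, 3.54, 3.41 and 2.99 in Cy3, with no overlap between the dyes and a ratio of -3.31 ± 0.06. Its other probe was detected in Cy5 on 3 arrays and in Cy3 on none, with a ratio of -2.14 ± 0.25. Of the 39 genes on the list 8 had a probe and 7 were detected in Cy5, so that 2 of 7 were members, against 227 of 7501 named genes, 3.03%. These 2 were PON3 and ZDBF2, and only ZDBF2 is known as paternally expressed. No excess of paternally expressed genes is read from so few.

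Hormones and neuropeptides gave 3 members, TAC1, PTH and TRH, of 18 detected in Cy5, beside the 3.03% over all named genes. PTH, which raises blood calcium, read 25.2, 25.3, 22.9 and 25.8 in Cy5 and 15.7, 10.1, 13.2 and 10.1 in Cy3 at the printed probe, a ratio of -1.04 ± 0.35. Members made up 4 of its 5 overlapping probes, and the remaining one was detected in Cy3 on 2 arrays with a ratio of -0.67. The Cy5 signals of PTH lay close above the highest undetected Cy3 signals of 24.6, 22.8, 22.3 and 20.9. TRH, the thyrotropin-releasing hormone, lay between the limits at -0.99 ± 0.53. PRL, the pituitary hormone prolactin, was not on the list but was a clear member. It read 30.6, 35.8, 54.7 and 23.7 in Cy5 and 9.41, 7.92, 15.0 and 8.82 in Cy3, a ratio of -1.79 ± 0.31. Its 4 further probes had ratios of -1.99, -1.79, -1.37 and -0.48. The last was by far the best measured, at 355 to 481 in Cy5 and 272 to 363 in Cy3, and had an SD of 0.17. PRL was lower in parthenotes by all 5 probes and detected in both embryo types by the last. These 5 probes lie in 1 stretch and are not separate measurements.

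Ion channels gave 5 members of 43 detected in Cy5, all of potassium channels and 3 of them with a bright spot 2 rows before, against 3.03% of all named genes. KCNS3, a modifying subunit of voltage-gated potassium channels, was the clear one. Its printed probe read 30.4, 36.7, 30.1 and 29.4 in Cy5 and 6.48, 12.9, 10.2 and 7.31 in Cy3. The 4 members had ratios from -2.34 to -1.83. A probe of another stretch of the transcript read 61.1, 83.5, 77.4 and 62.1 in Cy5, was detected in Cy3 on 2 arrays and had a ratio of -1.88 ± 0.42, so the 5 probes gave like differences. KCNAB1, KCNAB2 and KCND2 had ratios of -3.58, -2.32 and -1.80 with spots of 121762, 148303 and 125936 2 rows before. KCNA2 lay between the limits at -1.71 ± 1.08.

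**Figure D3:**
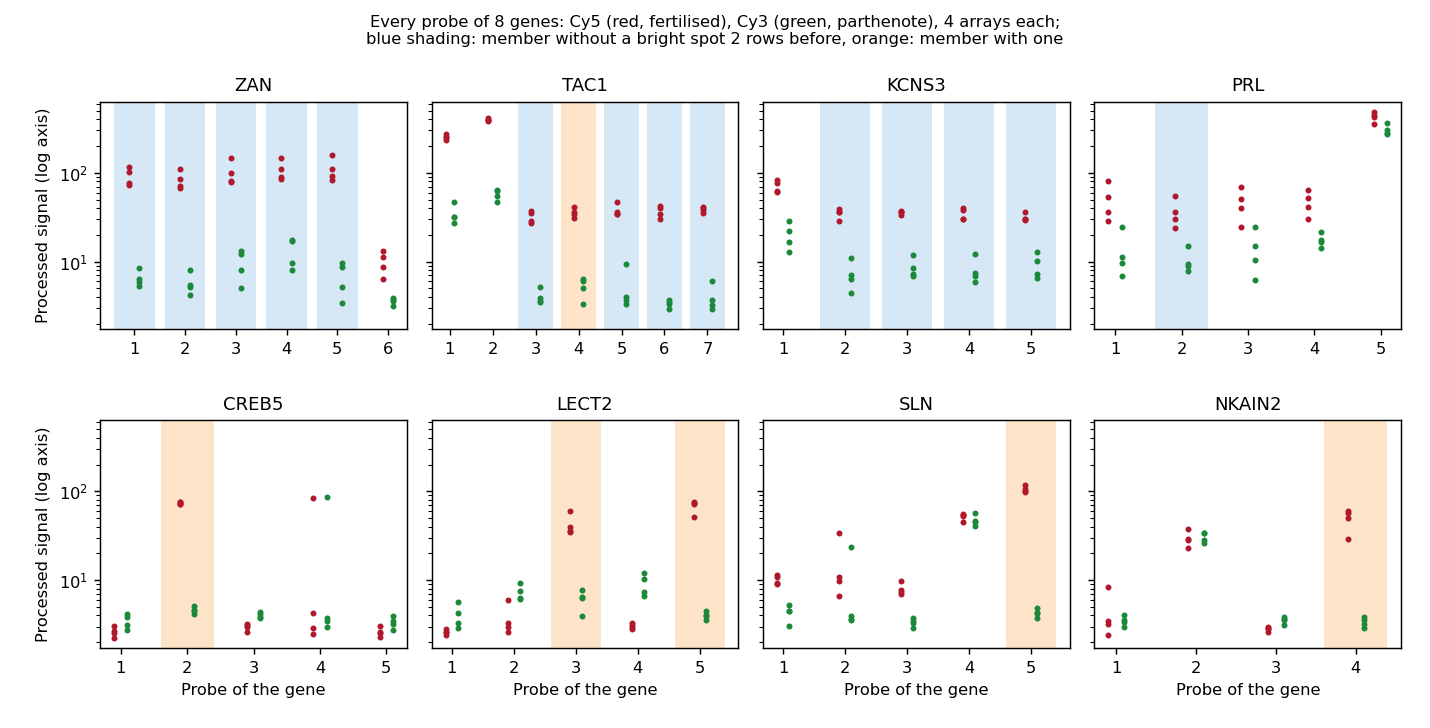
Processed Cy5 signal (red, fertilised) and Cy3 signal (green, parthenote) on 4 arrays for every probe of 8 genes, on a log axis. Blue shading marks members without a bright spot 2 rows before and orange those with one. In the upper row Cy5 exceeded Cy3 at every probe, member or not, except that the last ZAN probe was mostly undetected, and in the lower row the remaining probes were mostly detected alike in both dyes or in neither.

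The other clear genes included the glutathione S-transferase alpha I gene LOC100328910, of a family of detoxifying enzymes, which read 95.6, 83.5, 82.9 and 69.1 in Cy5 and 20.7, 21.3, 19.8 and 13.5 in Cy3. Its ratio was -2.15 ± 0.17, the bound on the scale with the offset was 1.65-fold, and its second probe, detected in both dyes, gave -1.50 ± 0.09. NECTIN1, a cell adhesion protein, had a member at -1.29 ± 0.24 and 3 further probes at -1.29, -1.20 and -1.02. RAB27A, a regulator of vesicle transport, had a member at -1.01 ± 0.54 and further probes at -1.14 and -0.99, the last with a spot of 72895 2 rows before. DLEU7 had 1 member at -0.99 ± 0.43 and 4 further probes from -0.86 to -0.60. In LOC100328910, NECTIN1 and DLEU7 the probes of each gene lie in 1 stretch and are not separate measurements. KIT, the receptor of stem cell factor in germ cells, had a clear member at -0.71 ± 0.19, a member between the limits at -0.73 ± 0.56 and another at -1.66 ± 0.08 with a bright spot of 93338. The KIT probe detected in both dyes gave -0.29 ± 0.32, which spans 0. The remaining clear genes were HRC, CYB5R2, NAALAD2, LOC100342463, DQX1, SYCE1, ELL3, NKD1, LOC100350959, CAMP and BICRAL, with ratios of their brightest clear probe between -1.67 and -0.62. SYCE1, of the synaptonemal complex that joins chromosomes in meiosis, was at -1.19 ± 0.25, and CAMP, an antimicrobial peptide, at -0.82 ± 0.63. CYB5R2 lay just inside the limit on neighbours, with a spot of 19715.

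**Figure D4:**
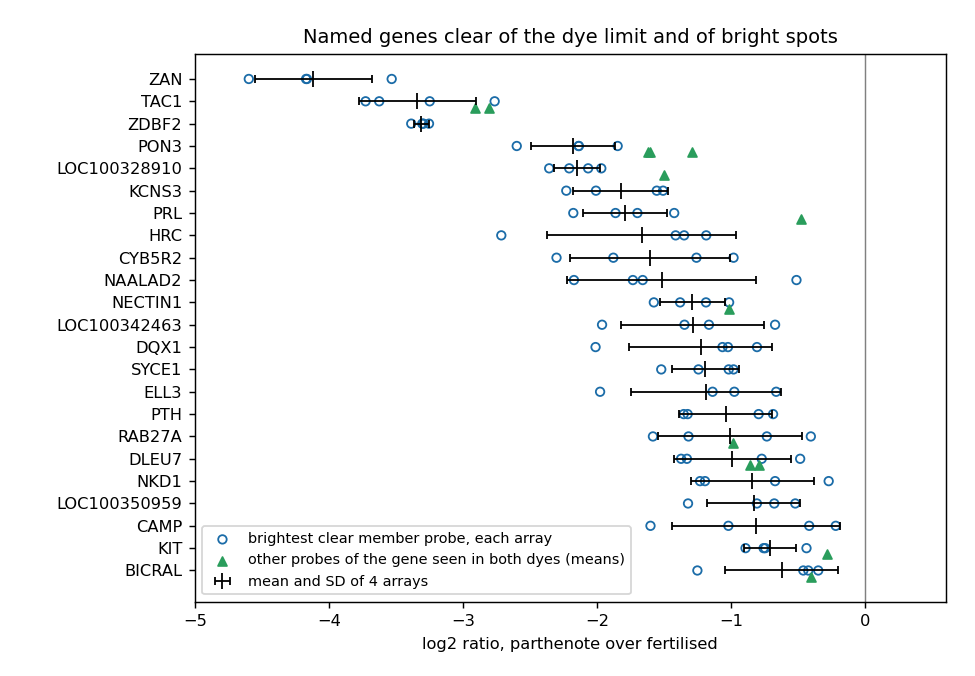
Log2 ratio of parthenote over fertilised signal for the 23 named genes clear of the dye limit and of bright spots, with the brightest clear member probe of each on 4 arrays (circles), its mean and SD (black), and the means of other probes of the gene detected in both dyes (green triangles). The circles lie below 0 by the definition of the set, with means from ZAN at -4.12 to BICRAL at -0.62. The triangles come from the same arrays, and only in TAC1, PON3, RAB27A and KIT do any lie outside the stretch of a member. They are therefore not independent of the circles. Their means also lie below 0, with KIT at -0.29 ± 0.32 spanning 0.

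Genes with a bright spot 2 rows before made up 10 of the 12 brightest named members, with spots of 115183 to 180410. SLN, the sarcolipin that regulates the calcium pump of muscle, read 118, 106, 98.7 and 102 in Cy5 and 4.85, 4.23, 4.22 and 3.75 in Cy3, a ratio of -4.64 ± 0.09. A further SLN probe, with no bright spot before it, was detected in both dyes on all arrays at 55.6, 45.0, 52.3 and 54.8 in Cy5 and 56.8, 40.6, 45.5 and 46.4 in Cy3 and gave -0.14 ± 0.12. These 2 SLN probes overlap and disagreed by far more than their SD. The other 3 probes of SLN, in other stretches, had ratios of -1.26, -1.25 and -1.08 and were detected in no dye or on 1 array. P2RY13, a purinergic receptor, had the most negative ratio of all members, -4.77 ± 0.26, at Cy5 signals of 81.6 to 109, and a spot of 139470. In LECT2 the 2 members of 5 overlapping probes were the 2 with spots of 139131 and 148117, and the other 3 were in neither dye on any array. NKAIN2 had a member at -3.81 ± 0.60 and a further probe detected in both dyes at 0.06 ± 0.18. NKAIN2 was not among the 10. CREB5, described above, was, and CDRT4, SLFNL1, LOC100348315, ANKAR, CADPS2 and B3GAT2 completed them, with ratios from -4.34 to -2.54. Further down were CGA, the common alpha subunit of glycoprotein hormones, at -3.60 ± 0.10, the serotonin receptor gene HTR2A at -3.11 ± 0.49, and AFP, alpha-fetoprotein of the yolk sac, at -2.31 ± 0.57. All 5 of the brightest unnamed members had spots of 135701 to 202565, 3 of them being antibody variable domain clones.

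Signalling ligands gave 3 members of 27 detected in Cy5, and all 3 lay between the limits. The share over all named genes, 227 of 7501 or 3.03%, stands behind this and the following counts. WNT5A, a ligand of the non-canonical Wnt pathway, read 23.1, 27.7, 25.6 and 20.6 in Cy5 and 4.59, 8.55, 4.29 and 3.85 in Cy3, a ratio of -2.26 ± 0.39. EREG, a ligand of the EGF receptor, had a ratio of -0.88 ± 0.28, and TGFB2 a ratio of -1.04 ± 1.02, an SD as large as its mean. In Cy5 TGFB2 overlapped its own Cy3 range. G protein-coupled receptors gave 4 members of 39, of which P2RY13, HTR2A and ADRA1A had a bright spot and OR5C1 lay between the limits. The fixed list of germ cell genes gave KIT and SYCP2 of 9, and did not hold ZAN or SYCE1, described above. Zinc finger genes gave 7 of 108, solute carriers 5 of 163 (3.07%), tripartite motif and F-box genes 4 of 129 (3.10%), homeobox, SOX, PAX, FOX and TBX genes 1 (PAX1) of 35, and hypoblast markers 1 (AFP) of 15. No member came from the lists of epiblast, trophectoderm, primitive streak, oocyte-stored, cell cycle and p53, DNA methylation and chromatin, interferon or ribosomal protein genes. The array named no probe for a Y-linked gene.

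By annotation, members made up 2.79% of all probes detected in Cy5 and 1.68% of all probes. Described genes gave 270 of 15654 detected probes, 1.72%, and cDNA clones of eye and nerve tissue 241 of 6306, 3.82%. Immunoglobulin and T-cell receptor sequences gave 29 of 93, 31.2%, but 19 of the 29 had a bright spot 2 rows before and only 2 were clear. Olfactory and vomeronasal receptors gave 12 of 51, 23.5%, of which 9 lay between the limits and 1 was clear. Members had a median GC content of 45% and probes detected in Cy5 43.3%. Few probes of both receptor classes were detected at all, and members made up 2.25% of the 1289 immunoglobulin and T-cell receptor probes and 2.63% of the 457 olfactory and vomeronasal probes.

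Positions were given for 538 members. By chromosome they made up 1.12% of the detected probes on chromosome 21 to 5.15% on chromosome 6, where 15 of 291 were members and 5 of the 15 were the ZAN probes. On the X chromosome it was 23 of 849, 2.71%, against 2.54% over all positioned probes. Members within 500 kb of each other formed 51 runs with 138 probes of 118 identifiers. Runs were not counted for other detected probes, so no clustering of the members is read from this number. Unnamed overlapping probes count there as separate identifiers, and by coordinates the runs held 102 stretches. At least 3 stretches were held by 7 runs, and 8 runs were 1 stretch only. The run with the most identifiers held 7, in 4 stretches, at chr8:37292641-37495817, with the neighbouring betaine and GABA transporter genes SLC6A12 and SLC6A13. It took in 7 of the 12 detected probes there, none clear and none with a bright spot. SLC6A12 read 20.7, 17.8, 17.9 and 20.4 in Cy5 and 17.9, 15.5, 18.4 and 13.6 in Cy3, a ratio of -0.24 ± 0.26, and SLC6A13 had -0.38 ± 0.39. The dyes overlapped at SLC6A12, and both genes lay near the detection limits. Of the clear probes, 4 unnamed ones formed a run of 0.065 kb at chr1:139272764-139272829, which is 1 stretch of sequence tiled by overlapping probes, and PTH was in a run of 5 probes.

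Around the threshold of the rule, 384 further probes differed only by detection in Cy3 on 1 array, 302 only by detection in Cy5 on 3 arrays, and 10 met the detection calls but had an outlier flag. The 3 brightest named probes just outside were those of SLC4A4, LOC100357372 and another PON3 probe, with ratios of -3.36, -2.55 and -2.02. The first 2 had spots of 153721 and 93958 2 rows before. By Cy5 signal after loess and Aquantile, the dimmest named genes inside were CASS4 at -0.76, BOC at 0.03 and ZNF672 at -0.95. BOC read 19.3, 16.9, 18.3 and 15.5 in Cy5 and had a mean Cy3 signal of 17.9, so it was called detected in 1 dye only at nearly equal signals.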

How the data were processed

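Each of 4 two-colour rabbit arrays held 1 pool of parthenotes (Cy3) and 1 of fertilised blastocysts (Cy5). The deposited files are Agilent Feature Extraction 10.10.1.1 output, per the submitters' processing notes, with spot intensity, background and processed signal of each channel, flags and a log10 ratio, which the authors' software computed after background subtraction and dye normalization. The log10 ratio was turned to log2 of Cy3 over Cy5. The authors' value table repeats these ratios with the sign turned and was not used. Arrays have no read depth, and their number limits the precision.

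Control spots were left out. Spots of a probe were averaged, and a flag was kept at a mean of at least 0.5. Bounds came from normexp background correction (offset 50), loess within arrays and Aquantile between channels, in limma 3.58.1 (R 4.3.3). The limma test of the log2 ratio against 0, two-sided with Benjamini-Hochberg adjustment over all probes, was tested on simulated data. Each array pairs 2 pools, so the ratio is itself the paired value.

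Gene names came from the array's identifiers and accessions through RefSeq (assembly mOryCun1.1, names only), with 23127 of 43603 probes matched to 1 gene, 139 to several and 20337 to none. Named genes were the 12 brightest, the 8 with the largest bounds, those with 3 or more member probes, those in a list, those in runs, the 3 dimmest and the 3 just outside, and the 5 brightest unnamed probes. The clear genes outside this rule, and PRL, LECT2's overlapping probes and NKAIN2, were named after their values were seen. The members and lists were chosen with earlier results of these data known, and the division by dye limit and by neighbouring spot was added after seeing the data. Alternatives changed the detection flag, the number of arrays, the normalization, the floor, the test and each array in turn. The genome build of the array's coordinates is not given in the sources used here.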

Additional observations from a re-analysis of the deposited data

Results flagged for a closer look

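In 7 of 87 named genes 1 array lay far from the other 3 in the log2 ratio. Chance alone flags about 1 in 20 groups of this size. The gap, as a share of the range over the 4 arrays, was 0.876 for BICRAL (array 4 at -1.25, others -0.46 to -0.35), 0.851 for HRC (array 1 at -2.72, others -1.41 to -1.19) and 0.838 for TRH (array 1 at -0.21, others -1.36 to -1.17). It was 0.853 for WDTC1 (array 4 at -1.94), 0.866 for VSIG8 (array 1 at -2.35), 0.835 for CADPS2 (array 3 at -4.79) and 0.831 for CFAP97D1 (array 4 at -3.75). All 7 kept a ratio below 0 on every array.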

How the results depend on the processing

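The number of members, 734, fell to 353 with the positive-and-significant flag in place of the well-above-background flag and to 12 where Cy5 had to exceed 2-fold the Cy3 limit on every array. It rose to 1430 where 3 of 4 arrays sufficed. It was 140 under the mirrored rule, 227 as named genes, 184 above the Cy3 limit, and 75 clear of both, or 71 and 80 with the neighbour limit at 10000 and 50000. With 1 array left out it was 879 to 975. The median log2 ratio of -1.01 became -0.19 after normexp with loess, -0.000276 after normexp with median centring, -0.76 without bright neighbours and -1.35 in the clear set, and lay between -1.07 and -0.97 with 1 array left out. Median centring put probes in both dyes at -0.46 and those in neither at 0.41, and the clear set stayed at -0.17, or -0.32 after loess. The 21 bounds of at least 2-fold became 1 with backgrounds as deposited, 113 from processed signals, 2 with the 5th percentile as floor, 5 without bright neighbours and 20 to 21 with 1 array left out. The 4841 probes lower in limma became 2402 by the methods' t-test at its threshold, 3078, 1027, 1539 and 708 without array 1, 2, 3 and 4, and 5241 with no block for the pairing. The mean of all probes, run on 57 named genes, moved 24 and turned the direction of 1, LOC100339931, to 0.0063, and loess moved 74 of 87 by more than their SD. The normexp settings add an offset of 50 to both channels, which draws log2 ratios of dim signals towards 0. How much of these changes came from the offset, and their other causes, were not tested. Dim signals and a missing dye swap limit all of these values.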
